A study of Homo sapiens with 18 samples.

Results

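The genes described here are 10 members of the BCL2 family, which sets the threshold for apoptosis at the mitochondria: BCL2, BCL2L1, BCL2L2, MCL1, BCL2A1, BAK1, BCL2L11, PMAIP1, BID and BMF. They were chosen by name, not by their values, and are 10 of the 56609 gene symbols in the count table. All 10 had enough reads to be tested, as had 31872 genes in all. The libraries came from 3 EBV-positive cell lines, HG3, MEC2 and PCL12, of chronic lymphocytic leukemia (CLL), a cancer of mature B cells. MEC2 carries mutated IGHV genes, while those of HG3 and PCL12 are unmutated. Cells of each line were left unstimulated or received ODN-2006, a synthetic class B oligonucleotide with unmethylated CpG motifs that activates TLR9, an endosomal receptor for DNA, at 2.5 μg/ml for 4 h. Each of the 6 groups held 3 libraries, so 18 libraries were compared. Each line is a single established line, and the labels do not say whether replicates were separate cultures, so the p-values measure the spread between these samples, which may be partly technical.

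The BCL2 family consists of survival proteins, effector proteins and BH3-only proteins. The survival proteins BCL2, BCL2L1 (the gene of BCL-XL), BCL2L2 (BCL-w), MCL1 and BCL2A1 (BFL-1) hold the effectors in check, the effectors BAK1 and BAX form pores in the outer mitochondrial membrane, and BH3-only proteins such as BCL2L11 (BIM), PMAIP1 (NOXA), BID and BMF release or activate the effectors. CLL cells are known for high BCL2 and for their sensitivity to drugs that block it, and TLR9 signals through NF-κB, of which BCL2A1 and BCL2L1 are textbook targets.

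Library totals ranged from 20382943 to 67308932 counts (median 34187430). All 8 B cell markers were above 1 CPM (counts scaled to a common library total) in every library (summed level 5091 to 8860 CPM), while the T cell markers summed to at most 2.42 CPM, NK markers to at most 4.29, monocyte markers to at most 1.87, and HBB was at 0 throughout. COL1A1, the defining stromal marker, was at 5.25 to 74.4 CPM with COL1A2 at most 0.450, and its part in the results was not tested. Marker levels use library totals alone. The CPM of members, pathway genes and NFKBIZ also take in a TMM scaling factor per library, from 0.913 to 1.11. Some libraries stood apart. Mitochondrial transcripts took 20.2% of the counts of unstimulated HG3 replicate 2 and 19.7% of CpG-stimulated MEC2 replicate 2, against 2.82% to 9.28% elsewhere. In replicates 2 and 3 of PCL12, 45 genes of MEC2, picked because replicate 1 of PCL12 all but lacked them, had median levels of 29.0% to 31.3% of those in MEC2, against 2.26% to 2.36% in replicate 1, and 32 genes of PCL12 were there at 67.7% to 79.5% of their level in replicate 1. Whether replicates 2 and 3 of PCL12 hold MEC2 material was not tested. The part of this in the PCL12 values, and in the differences between MEC2 and PCL12, was not tested either. NFKBIZ, a gene induced by TLR signalling and used as the check of stimulation, was higher with CpG in 3 of 3 replicate pairs of every line. For pairs 1, 2 and 3, HG3 gave log2 ratios of 0.67, 1.14 and 0.38, MEC2 gave 1.97, 2.73 and 1.83, and PCL12 gave 2.19, 1.53 and 1.38. In HG3, 7.08% of all genes were higher in 3 of 3 pairs. In the edgeR fit with the pairs, NFKBIZ passed in MEC2 (adjusted p = 1.395e-19) and PCL12 (2.562e-11). In HG3 it did not (Log2FC 0.73, edgeR adjusted p = 0.139). The study likewise reported no significant NFKBIZ rise in HG3, with low or no induction by PCR and no induced protein.

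The promoters of BCL2L1, BCL2A1 and PMAIP1 are printed because these are the members whose ratios with CpG were highest on average over the 3 lines. Each is the 250 bases before a RefSeq transcription start (build GRCh38.p14), 5′ to 3′ on the gene's strand, with TATAA in capitals, searched on that strand alone. RefSeq starts were found for 8 of the 10 members, and for BCL2L1 the upstream one of 2 is shown.
BCL2L1, chr20:31723964-31724213, minus strand: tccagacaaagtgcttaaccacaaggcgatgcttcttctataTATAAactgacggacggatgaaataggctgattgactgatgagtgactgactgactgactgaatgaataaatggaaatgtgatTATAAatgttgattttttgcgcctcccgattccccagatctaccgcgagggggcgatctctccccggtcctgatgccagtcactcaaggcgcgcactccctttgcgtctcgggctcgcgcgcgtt
BCL2A1, chr15:79971197-79971446, minus strand: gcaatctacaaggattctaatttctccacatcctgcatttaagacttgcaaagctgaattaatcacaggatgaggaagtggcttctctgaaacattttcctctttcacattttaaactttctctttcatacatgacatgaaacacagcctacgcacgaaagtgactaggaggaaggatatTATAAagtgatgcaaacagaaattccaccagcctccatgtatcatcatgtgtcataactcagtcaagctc
PMAIP1, chr18:59899746-59899995, plus strand: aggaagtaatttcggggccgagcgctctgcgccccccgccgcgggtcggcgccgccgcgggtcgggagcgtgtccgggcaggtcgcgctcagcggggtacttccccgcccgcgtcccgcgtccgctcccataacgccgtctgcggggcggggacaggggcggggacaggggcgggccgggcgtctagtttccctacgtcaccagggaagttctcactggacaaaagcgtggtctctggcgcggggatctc
TATAA stood in the BCL2L1 window at positions -208 and -125 and in the BCL2A1 window at position -70, counted back from the start, and was held by 13.64% of 35116 windows of the same length. The PMAIP1 window was 72.8% G or C, the BCL2L1 window 50% and the BCL2A1 window 38.8%. The κB consensus, searched on both strands, was found in 6.883% of all windows and in none of the windows of these members, which says only that the letters are not in these 250 bases. Another κB pattern, which leaves 3 of its 10 positions open and overlaps the consensus, was held by 5.066% of all windows on either strand and, among the members, by that of BCL2L11 at position -177 on the minus strand. For comparison, the first 60 bases of an NFKBIZ window held a κB match, in capitals, at position -223.
NFKBIZ, chr3:101827740-101827799, plus strand: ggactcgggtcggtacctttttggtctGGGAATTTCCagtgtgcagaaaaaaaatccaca

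Among the survival genes of the 10 members, BCL2A1 and BCL2L1 differed most between the unstimulated lines, and both were highest in HG3. BCL2A1 was lower in MEC2 and in PCL12 than in HG3, and BCL2L1 was lower in MEC2, while MCL1, BCL2 and BCL2L2 did not pass the test in any pair of lines. Of the 10 members, 2 differed between MEC2 and HG3 at an adjusted p under 0.05, where 9.78% of all genes did. Between PCL12 and HG3 it was 1 of 10 (9.44% of all genes), and between MEC2 and PCL12 0 of 10 (2.05% of all genes) by edgeR, with 1 of 10 at an unadjusted p under 0.05 (10.98% of all genes), and 0 of 10 by DESeq2 and limma-voom. The median Log2FC of the members was -0.48 for MEC2 against HG3, -0.41 for PCL12 against HG3 and -0.16 for MEC2 against PCL12, where the median of all genes was 0 in each. In bulk samples, fewer cells of a type and less RNA per cell cannot be told apart.

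**Figure D1:**
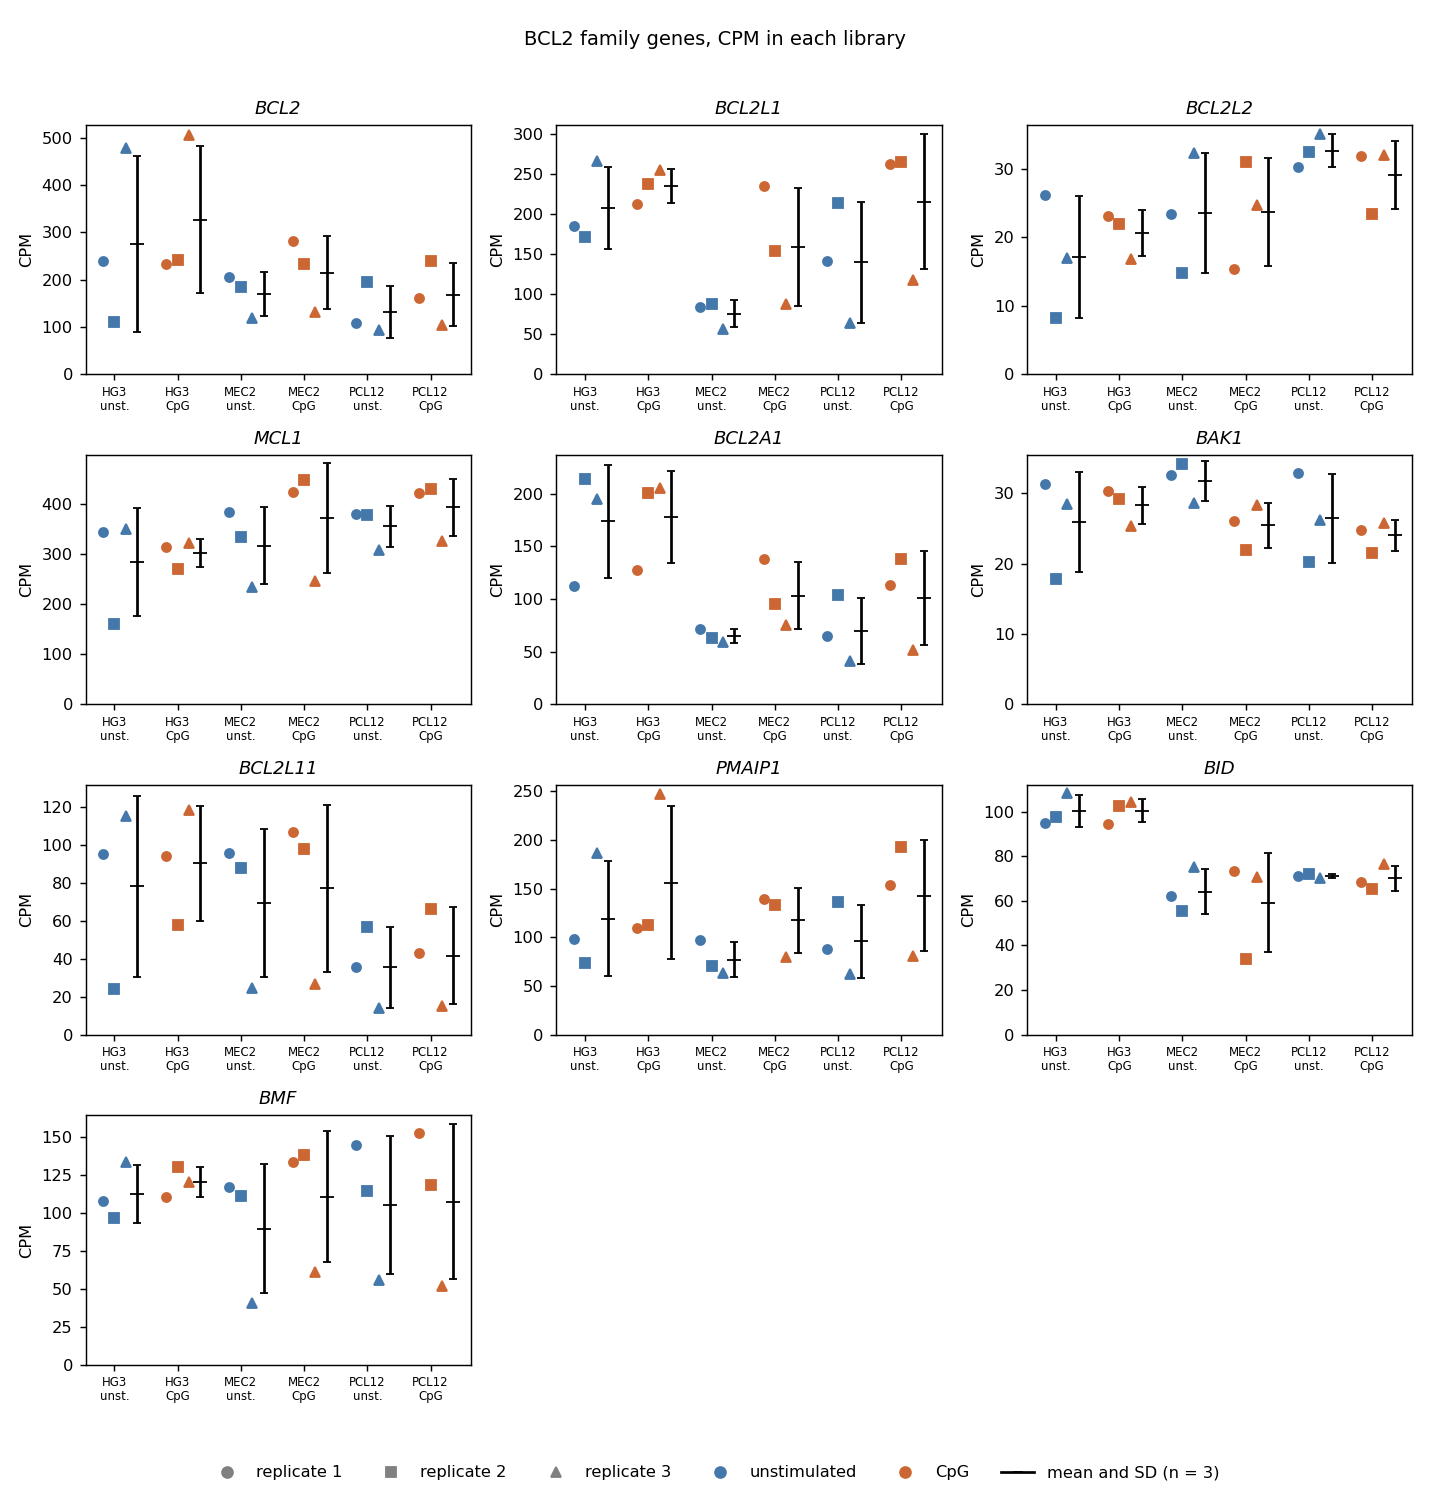
CPM (vertical axis, linear, from 0) of the 10 BCL2 family genes in the 6 groups, with 1 point per library (circle, square and triangle for replicates 1, 2 and 3, blue unstimulated, orange CpG) and bars for the mean and SD of 3 libraries. BCL2A1 in the 3 unstimulated MEC2 libraries sits between 59.3 and 71.7 CPM, below every HG3 library, and the triangles are the lowest points of BCL2L11 and BMF in MEC2 and PCL12.

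BCL2A1 lies on chromosome 15, 79960892-79971196, minus strand (gene positions are those of GENCODE 44 on GRCh38). Its level in unstimulated HG3 was 113, 214 and 194 CPM in replicates 1, 2 and 3 (mean 174 ± 53.7, SD, n = 3). It was 71.7, 63.5 and 59.3 CPM in MEC2 (64.8 ± 6.35, n = 3) and 65.2, 103 and 41.3 CPM in PCL12 (70.0 ± 31.3, n = 3). Every HG3 library was above every library of the other lines, which overlapped each other. MEC2 was 2.68-fold lower than HG3 (Log2FC -1.42, SE 0.349, edgeR adjusted p = 0.00766). PCL12 was 2.48-fold lower (Log2FC -1.31, SE 0.348, edgeR adjusted p = 0.0142). The exact permutation test gave p = 0.1 for each, the smallest that 3 against 3 libraries allow. The adjusted p over the alternatives ranged from 1.184e-05 to 0.0992 for MEC2, where it rose to 0.0625 without unstimulated HG3 replicate 2 and to 0.0992 without both libraries rich in mitochondrial counts (Log2FC -1.24). For PCL12 it ranged from 9.950e-05 to 0.136. There the call was lost without unstimulated HG3 replicate 2 (adjusted p = 0.0982) or 3 (0.0528), without unstimulated PCL12 replicate 1 (0.0674) or 3 (0.102), without PCL12 replicates 2 and 3 of both treatments (0.0874), without both libraries rich in mitochondrial counts (0.136), and in a fit of the 2 groups alone (0.0513). Over the alternatives its Log2FC lay between -1.70 and -1.03. Leaving out PCL12 replicates 2 and 3, here and in the results that follow, leaves 1 PCL12 library in each treatment, which the fit assumes to vary like the other groups.

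BCL2L1 lies on chromosome 20, 31664452-31723989, minus strand. It was at 185, 172 and 267 CPM in unstimulated HG3 (208 ± 51.5, n = 3), 84.1, 87.2 and 56.2 CPM in MEC2 (75.8 ± 17.1, n = 3), and 142, 214 and 63.6 CPM in PCL12 (140 ± 75.1, n = 3). The MEC2 libraries were all below the HG3 libraries, and PCL12 overlapped both. MEC2 was 2.74-fold lower than HG3 (Log2FC -1.46, SE 0.387, edgeR adjusted p = 0.0161, range over the alternatives 5.546e-06 to 0.0889). The call was lost without unstimulated HG3 replicate 3 (adjusted p = 0.0785), unstimulated MEC2 replicate 1 (0.0522) or 3 (0.0889), or both libraries rich in mitochondrial counts (0.0795), with Log2FC between -1.24 and -1.58. Against PCL12, MEC2 was at a Log2FC of -0.88 (SE 0.382, edgeR adjusted p = 0.379), and -0.44 without unstimulated PCL12 replicate 2. It passed with no filter on low counts (Log2FC -0.91, adjusted p = 0.0365). PCL12 against HG3 gave -0.57 (95% interval -1.36 to 0.21), which came to -1.01 without unstimulated PCL12 replicate 2 and to -0.20 without replicate 3.

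BCL2 (chromosome 18, 63123346-63320128, minus strand) varied more within HG3 than between lines. It was at 240, 110 and 478 CPM in unstimulated HG3 (276 ± 187, n = 3), 206, 184 and 119 CPM in MEC2 (170 ± 45.6, n = 3), and 108, 195 and 93.0 CPM in PCL12 (132 ± 55.2, n = 3). The groups overlapped, and replicates of HG3 differed by up to 4.36-fold. PCL12 was at a Log2FC of -1.06 against HG3 (SE 0.481, edgeR adjusted p = 0.207), which came to -0.40 without unstimulated HG3 replicate 3 passed the threshold with no filter on low counts (adjusted p = 0.00289), and was -1.44 without both libraries rich in mitochondrial counts (adjusted p = 0.109) and -1.33 without PCL12 replicates 2 and 3 (adjusted p = 0.420). MCL1 (chromosome 1, 150560895-150579738, minus strand), whose protein turns over quickly, was at 344, 160 and 352 CPM in HG3, 384, 335 and 234 CPM in MEC2 and 381, 380 and 309 CPM in PCL12. Its 3 differences between lines lay between -0.16 and 0.32 on the log2 scale, each with a 95% interval that held 0 and lay within -0.75 and 0.90.

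BCL2L2 (chromosome 14, 23298790-23311751, plus strand) was, with MCL1, a survival gene whose mean was highest in PCL12. Its levels were 26.2, 8.25 and 17.0 CPM in unstimulated HG3, 23.4, 14.9 and 32.4 CPM in MEC2, and 30.3, 32.5 and 35.1 CPM in PCL12. The PCL12 libraries were all above those of HG3 (Log2FC 0.92, SE 0.346, edgeR adjusted p = 0.0998), and MEC2 overlapped both. That adjusted p was 0.0442 with no filter on low counts and 0.0152 without unstimulated HG3 replicate 1. The Log2FC was 0.60 without both libraries rich in mitochondrial counts (adjusted p = 0.273) and 0.83 without PCL12 replicates 2 and 3 (adjusted p = 0.549). The read-through gene BCL2L2-PABPN1, which shares exons with BCL2L2, had at most 0.481 CPM in any library. How reads in shared exons were counted is not given in the sources used here. This low level therefore does not show how much of the BCL2L2 signal could come from the read-through.

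**Figure D2:**
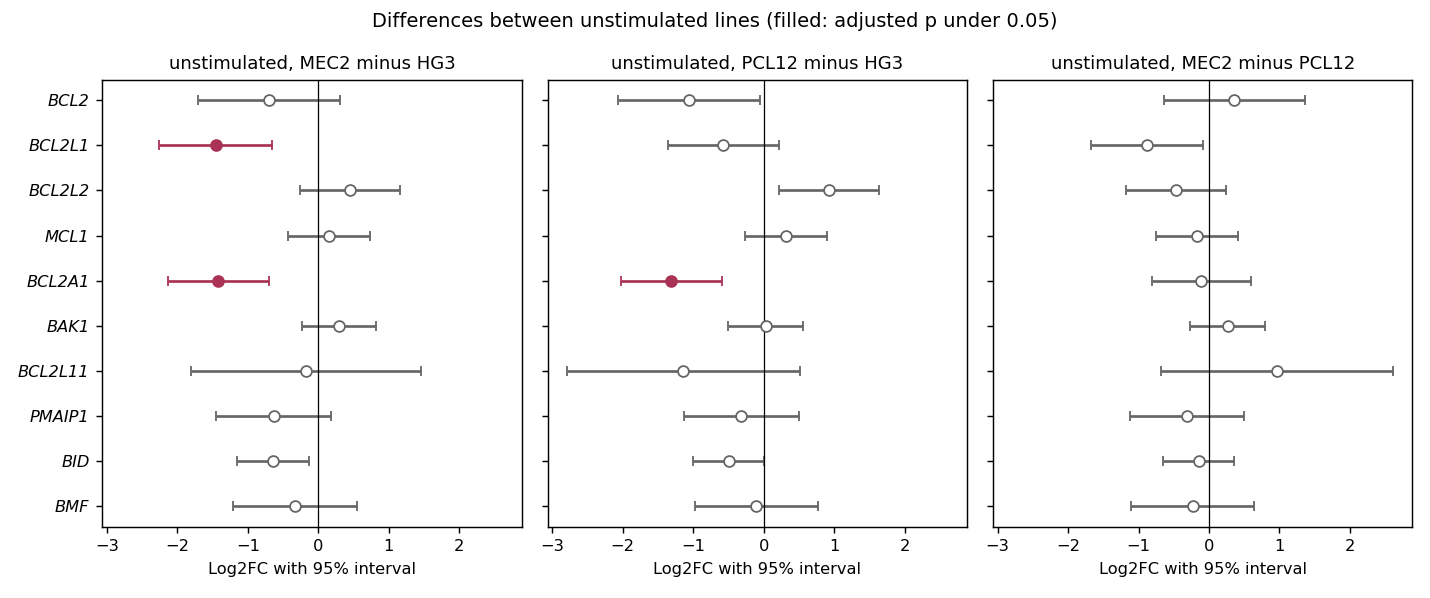
Log2FC (horizontal axis) between unstimulated lines for the 10 genes, with the 95% interval of the edgeR fit and filled points for an adjusted p under 0.05. The filled points are BCL2L1 (-1.46) and BCL2A1 (-1.42) for MEC2 against HG3 and BCL2A1 (-1.31) for PCL12 against HG3.

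BAK1 (chromosome 6, 33572547-33580293, minus strand), the effector among the members, was among those with the narrowest intervals. It was at 31.3, 17.8 and 28.5 CPM in unstimulated HG3, 32.7, 34.1 and 28.6 CPM in MEC2 and 32.9, 20.3 and 26.2 CPM in PCL12. The 3 groups overlapped, and the differences were 0.30, 0.03 and 0.27 on the log2 scale for MEC2 against HG3, PCL12 against HG3 and MEC2 against PCL12, all with 95% intervals between -0.50 and 0.83.

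Of the BH3-only genes, BID separated HG3 from the other lines most evenly, without passing the adjusted threshold. BID (chromosome 22, 17734138-17774770, minus strand), whose protein is cut by caspase-8 to link death receptors to mitochondria, was at 94.9, 97.5 and 108 CPM in unstimulated HG3 (100.2 ± 7.05, n = 3), 62.0, 55.4 and 75.2 CPM in MEC2 (64.2 ± 10.1, n = 3) and 71.3, 71.9 and 70.1 CPM in PCL12 (71.1 ± 0.920, n = 3). Every HG3 library lay above every library of MEC2 and PCL12. MEC2 was 1.56-fold lower (Log2FC -0.64, SE 0.246, edgeR adjusted p = 0.108), with adjusted p = 0.0467 by DESeq2 and 0.0170 without both libraries rich in mitochondrial counts. PCL12 was at -0.50 against HG3 (edgeR adjusted p = 0.238), with -0.51 (adjusted p = 0.0711) without both libraries rich in mitochondrial counts and -0.47 (adjusted p = 0.706) without PCL12 replicates 2 and 3.

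BCL2L11 (chromosome 2, 111119378-111168444, plus strand), which binds all survival proteins, had the widest spread between replicates. It was at 94.9, 24.1 and 115 CPM in unstimulated HG3, 95.5, 87.5 and 24.6 CPM in MEC2, and 35.6, 56.7 and 14.1 CPM in PCL12. In each line 1 replicate was far below the others, replicate 2 in HG3 and replicate 3 in MEC2 and PCL12, and the groups overlapped. PMAIP1 (chromosome 18, 59899996-59904305, plus strand), which binds MCL1 and BCL2A1, was at 97.9, 73.7 and 187 CPM in HG3, 97.4, 70.4 and 63.6 CPM in MEC2 and 88.3, 136 and 62.8 CPM in PCL12. BMF (chromosome 15, 40087890-40108892, minus strand), first known as a sensor of detachment, was at 108, 96.8 and 134 CPM in HG3, 117, 112 and 40.6 CPM in MEC2 and 145, 115 and 55.9 CPM in PCL12. For these 3 genes the groups overlapped in every pair of lines and no difference had an unadjusted p under 0.05, with Log2FC between -1.14 and 0.97. With no filter on low counts BCL2L11 passed for PCL12 against HG3 (edgeR adjusted p = 0.00149) and for MEC2 against PCL12 (0.0348). Antisense or overlapping genes are annotated at BCL2, BCL2L1, BCL2L2, MCL1, BAK1, BCL2L11, BID and BMF, and the libraries are described as stranded, but whether the counting used the strand is not given in the sources used here, so reads of such partners may be included.

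The ratio of survival genes to each other was taken within a library, so that gene length cancels in comparisons between groups. The log2 ratio of BCL2 to MCL1 was -0.21 ± 0.564 in unstimulated HG3, -0.92 ± 0.0608 in MEC2 and -1.50 ± 0.472 in PCL12 (SD, n = 3). MEC2 was 0.71 lower than HG3 and PCL12 1.29 lower, with no test made of these ratios. The log2 ratio of BCL2L1 to BCL2 was -0.19 ± 0.763 in HG3, -1.15 ± 0.125 in MEC2 and -0.01 ± 0.484 in PCL12. It was -0.48 ± 0.193 in CpG-stimulated MEC2, 0.67 higher than in unstimulated MEC2, and 0.34 ± 0.317 in CpG-stimulated PCL12, 0.35 higher than unstimulated. In HG3 the same ratio was 0.19 lower with CpG (-0.38 ± 0.528), within the spread of its replicates. The ratio of BCL2A1 to BCL2 rested on a wide spread in HG3 (-0.47 ± 1.25 unstimulated) and was -1.35 ± 0.305 in unstimulated MEC2 and -0.94 ± 0.222 in unstimulated PCL12.

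Other genes of the pathway were taken from 2 lists, 13 further BCL2 family genes and 10 genes downstream of mitochondria. Of the 13, 1 was higher and 2 were lower at an adjusted p under 0.05 in MEC2 against HG3 (9.78% of all genes passed), the same counts in PCL12 against HG3 (9.44%), and 0 passed by edgeR in MEC2 against PCL12 (2.05%), with 1 of 13 and 10.98% of all genes at an unadjusted p under 0.05. The 3 genes were HRK, BBC3 and BCL2L10 in both comparisons, which share the HG3 libraries. The medians of the 13 were -0.20, -0.17 and 0.18 on the log2 scale in these 3 comparisons.

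BBC3 (PUMA, a BH3-only gene induced by p53) was at 30.9, 41.5 and 45.4 CPM in unstimulated HG3, 8.11, 8.70 and 4.13 CPM in MEC2, and 12.1, 8.45 and 2.83 CPM in PCL12. It was 5.63-fold lower in MEC2 (Log2FC -2.49, SE 0.436, edgeR adjusted p = 2.354e-04) and 5.06-fold lower in PCL12 (Log2FC -2.34, SE 0.433, edgeR adjusted p = 4.563e-04) than in HG3. BCL2L10, a survival gene known from oocytes, was at 16.3, 24.7 and 16.3 CPM in HG3, 0.659, 1.06 and 3.13 CPM in MEC2 and 0.385, 1.14 and 1.21 CPM in PCL12. It was 11.7-fold lower in MEC2 (Log2FC -3.55, SE 0.569, edgeR adjusted p = 8.339e-05) and 20.8-fold lower in PCL12 (Log2FC -4.38, SE 0.594, edgeR adjusted p = 8.683e-06). HRK, a BH3-only gene best known in neurons, had no read in the 3 unstimulated HG3 libraries, 119, 52 and 19 reads in MEC2 and 339, 200 and 163 reads in PCL12. Against a floor of 3 reads over the group (0.0275 CPM), it was at least 73.9-fold higher in MEC2 (edgeR adjusted p = 1.436e-04) and at least 259-fold higher in PCL12 (edgeR adjusted p = 1.408e-05). The calls of BCL2L10, HRK and, for MEC2, BBC3 held in all alternatives run, and that of BBC3 in PCL12 was lost without PCL12 replicates 2 and 3, where 1 PCL12 library was left (Log2FC -1.69, adjusted p = 0.0763).

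**Figure D3:**
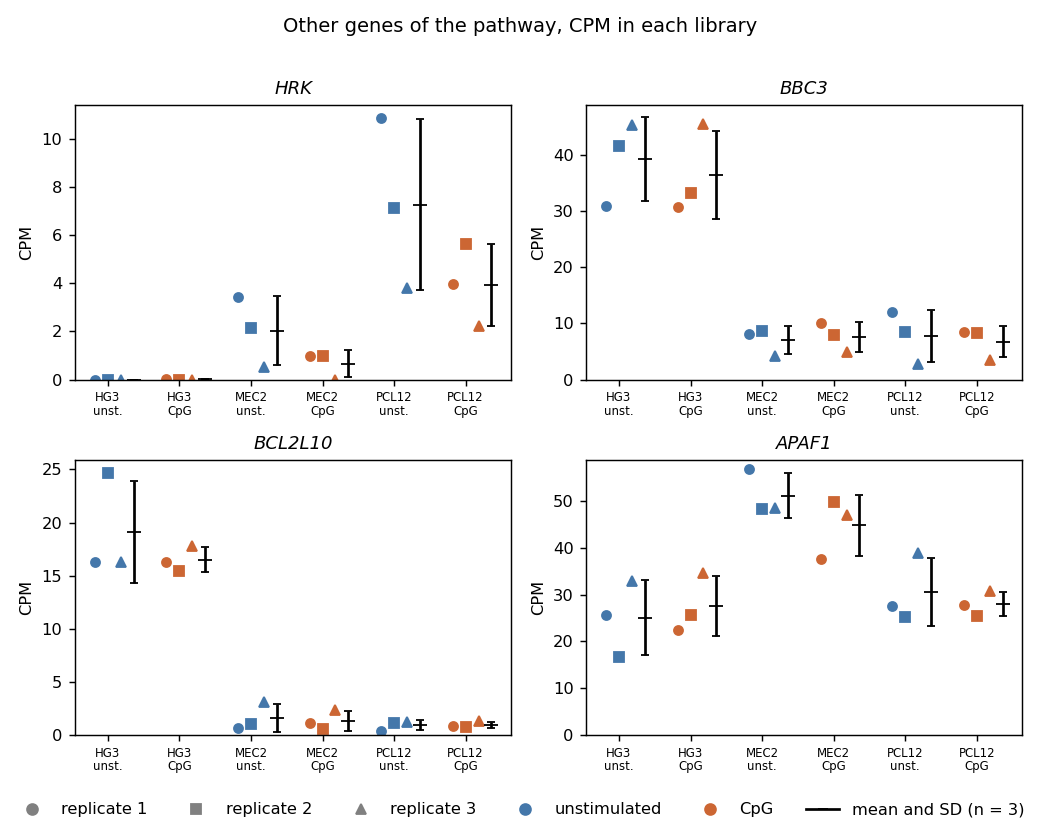
CPM (vertical axis, linear, from 0) of 3 further BCL2 family genes and of APAF1 in the 6 groups, with 1 point per library (shapes for replicates, colours for treatment) and bars for the mean and SD of 3 libraries. BBC3 and BCL2L10 are high in the HG3 libraries and low in the others, HRK is at 0 in unstimulated HG3, and APAF1 is higher in every unstimulated MEC2 library than in unstimulated HG3.

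The 10 downstream genes had medians of 0.15, 0.09 and 0.04 on the log2 scale for MEC2 against HG3, PCL12 against HG3 and MEC2 against PCL12. APAF1, the scaffold of the apoptosome, was at 25.7, 16.7 and 32.8 CPM in unstimulated HG3 and 56.8, 48.3 and 48.5 CPM in MEC2, so that the groups did not overlap. It was higher in MEC2 by a Log2FC of 1.03 (SE 0.267, edgeR adjusted p = 0.0118), and this call was lost in a fit of the 2 groups alone (adjusted p = 0.0558).

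The effect of CpG on the members was asked within each line. Without pairing, 0 of 10 members passed an adjusted p under 0.05 in HG3, MEC2 or PCL12 by edgeR, where 0.00314%, 0.00314% and 0% of all genes did, and 0 of 10 by DESeq2 and limma-voom. At an unadjusted p under 0.05, edgeR gave 1 of 10 in MEC2 (BCL2L1) and 0 of 10 in the other lines, where 2.46% of all genes in MEC2, 3.73% in HG3 and 2.09% in PCL12 passed. The medians of the members were 0.15, 0.27 and 0.19 on the log2 scale in HG3, MEC2 and PCL12, against 0, 0 and 0.02 for all genes. The design pairs 1 stimulated with 1 unstimulated sample in each replicate series, so that the replicate number could also enter the edgeR fit as a block. With this block, BCL2L1 rose in MEC2 (1 of 10 members, 0.333% of all genes, with 3 of 10 members and 3.41% of all genes at an unadjusted p under 0.05), and 0 of 10 passed in HG3 (0.135% of all genes, and at an unadjusted p under 0.05 1 of 10 members and 3.59% of all genes) and in PCL12 (0.0471%, and at an unadjusted p under 0.05 3 of 10 and 1.69%).

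**Figure D4:**
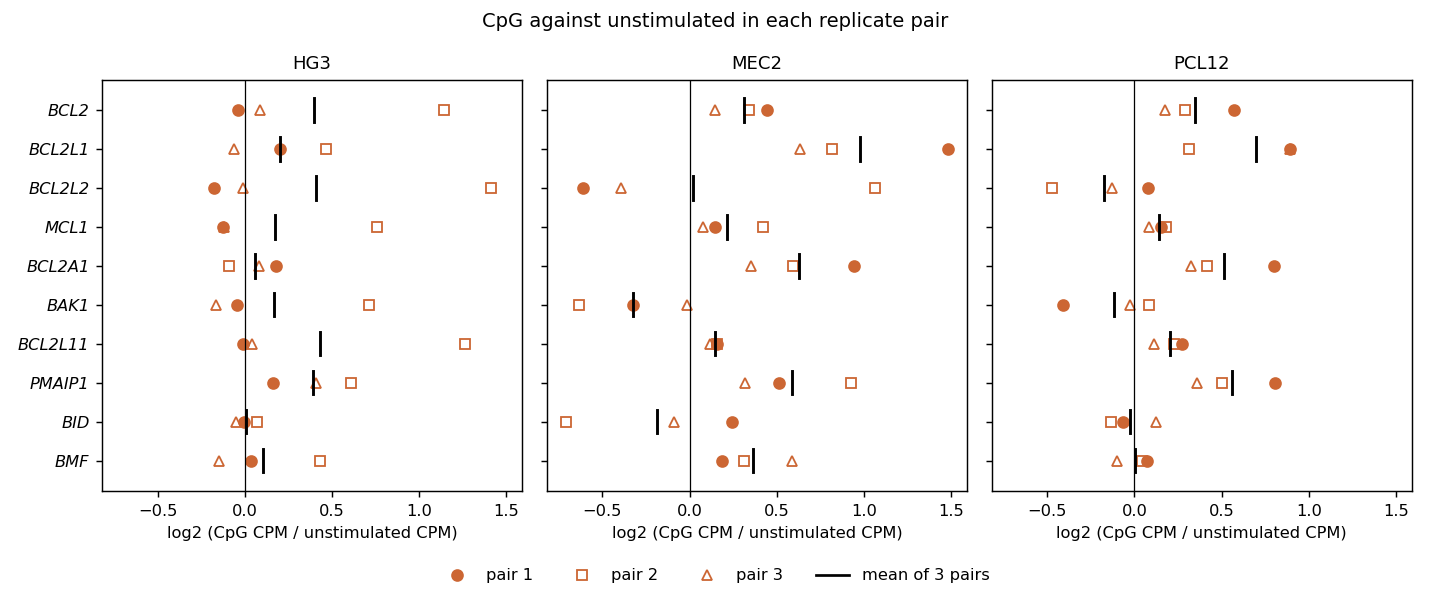
Log2 ratio of CpG-stimulated to unstimulated CPM (horizontal axis) of each gene in each replicate pair of the 3 lines, with symbols for pairs 1, 2 and 3 and a bar for their mean. All 9 ratios of PMAIP1 are above 0, and those of BCL2L1 in MEC2 lie between 0.64 and 1.48.

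BCL2L1 was at 235, 154 and 87.3 CPM in CpG-stimulated MEC2, against 84.1, 87.2 and 56.2 CPM unstimulated. Every stimulated library was above every unstimulated one, the nearest being 87.3 CPM in CpG replicate 3 and 87.2 CPM in unstimulated replicate 2. The TMM factors of these libraries were 1.00 and 1.04, and without the factors the order of the 2 values is reversed. The pair ratios were 1.48, 0.82 and 0.64 on the log2 scale. The fit without the block gave a Log2FC of 1.07 (SE 0.384, edgeR adjusted p = 1, exact permutation p = 0.1), and the fit with it gave 0.98, a 1.97-fold rise (SE 0.208, edgeR adjusted p = 0.00218). Limma-voom with the block gave an adjusted p of 0.0461. The call with the block was lost without pair 1 (Log2FC 0.72, edgeR adjusted p = 0.465), and it held without pair 2 (1.06, adjusted p = 0.00105), which holds the CpG library rich in mitochondrial counts, and without pair 3 (1.13, adjusted p = 0.0102).

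In PCL12, BCL2L1 was at 263, 265 and 118 CPM with CpG and 142, 214 and 63.6 CPM without, so the groups overlapped while each pair was higher with CpG, by 0.89, 0.31 and 0.89 on the log2 scale. The blocked Log2FC was 0.70 (SE 0.206, edgeR adjusted p = 0.362), and the unblocked 0.62 (edgeR adjusted p = 1). Without PCL12 replicates 2 and 3 the CpG values of PCL12 rest on replicate 1 alone, which all but lacked the MEC2 genes, with the spread taken from the other groups, and the unblocked Log2FC was 0.89 for BCL2L1, 0.80 for BCL2A1 and 0.81 for PMAIP1 (edgeR adjusted p = 1 for each). In HG3 BCL2L1 was at 213, 237 and 255 CPM with CpG and 185, 172 and 267 CPM without, with pair ratios of 0.20, 0.46 and -0.06 and an unblocked Log2FC of 0.18 (95% interval -0.61 to 0.96).

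BCL2A1 also had its highest mean pair ratio in MEC2 and its lowest in HG3. It was at 138, 95.7 and 75.5 CPM in CpG-stimulated MEC2, all above the unstimulated libraries (59.3 to 71.7 CPM), with pair ratios of 0.94, 0.59 and 0.35. The blocked Log2FC was 0.63 (edgeR adjusted p = 0.325), and the unblocked 0.67 (edgeR adjusted p = 1). In PCL12 it was at 113, 138 and 51.7 CPM with CpG against 65.2, 103 and 41.3 CPM, with pair ratios of 0.80, 0.42 and 0.33 (blocked Log2FC 0.51, edgeR adjusted p = 1). In HG3, where the unstimulated level was highest, it was at 128, 201 and 206 CPM with CpG against 113, 214 and 194 CPM, with pair ratios of 0.18, -0.09 and 0.08.

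PMAIP1, a BH3-only gene, was the member that was higher with CpG in all 9 pairs, as were 0.301% of all genes. HG3 gave pair ratios of 0.16, 0.61 and 0.41, MEC2 gave 0.52, 0.92 and 0.32, and PCL12 gave 0.80, 0.51 and 0.36. PMAIP1 was at 109, 112 and 247 CPM with CpG in HG3. In MEC2 it was at 139, 134 and 79.3 CPM, and PCL12 had 154, 193 and 80.8 CPM, and each of these groups overlapped its unstimulated libraries. The blocked Log2FC was 0.59 in MEC2 (edgeR adjusted p = 0.495), 0.56 in PCL12 (edgeR adjusted p = 1) and 0.39 in HG3 (edgeR adjusted p = 1). In HG3 the unblocked Log2FC of PMAIP1 came to -0.11 without CpG replicate 3 and to 0.86 without unstimulated replicate 3.

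The mean of the 3 lines was fitted after these values had been seen. Without the block, 0 of 10 members passed by edgeR (0.00941% of all genes), with 3 of 10 at an unadjusted p under 0.05 (4.04% of all genes), and 0 of 10 by DESeq2 and limma-voom. With the block, 2 of 10 passed (0.555% of all genes), with 5 of 10 at an unadjusted p under 0.05 (4.54% of all genes). BCL2L1 rose by a Log2FC of 0.63 (SE 0.119, edgeR adjusted p = 1.354e-04) and was higher in 8 of 9 pairs. PMAIP1 rose by 0.51 (SE 0.118, edgeR adjusted p = 0.00603) and was higher in 9 of 9 pairs. Without the block their adjusted p was 1.00. BCL2A1, higher in 8 of 9 pairs, was at 0.40 (SE 0.118, edgeR adjusted p = 0.101) with the block, and passed without HG3 pair 2 (adjusted p = 0.0105) or MEC2 pair 2 (0.0318), the pairs that hold a library rich in mitochondrial counts. The BCL2L1 call held with each of the 9 pairs left out in turn and without PCL12 replicates 2 and 3 (0.70, adjusted p = 0.0212). The PMAIP1 call was lost without PCL12 pair 1 (adjusted p = 0.142) or 2 (0.0534) and without PCL12 replicates 2 and 3 (0.60, adjusted p = 0.0764).

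None of the other 7 members passed with CpG in any of the fits run. BCL2 was higher in 8 of 9 pairs, at 233, 242 and 506 CPM with CpG in HG3, 281, 233 and 131 CPM in MEC2 and 161, 239 and 105 CPM in PCL12. Its highest pair ratio, 1.14, was that of HG3 pair 2, against -0.04 and 0.08 in the other HG3 pairs. Over the mean of the 3 lines its blocked Log2FC was 0.35 (SE 0.119, edgeR adjusted p = 0.286). BCL2L11 was also higher in 8 of 9 pairs, with 1.26 in HG3 pair 2 and ratios of 0.12 to 0.16 in MEC2 and 0.11 to 0.27 in PCL12. Its blocked Log2FC was 0.42 in HG3 (SE 0.210, edgeR adjusted p = 1), which came to 0.01 without HG3 pair 2, and 0.26 over the mean of the 3 lines (SE 0.120, edgeR adjusted p = 0.959). MCL1 was higher in 7 of 9 pairs, with 0.76 in HG3 pair 2 and 0.08 to 0.42 in MEC2 and PCL12. HG3 pair 2 rests on the unstimulated library with 20.2% mitochondrial counts, where, of 8839 genes cut into 5 groups by length, the longest were at a median log2 deviation of -0.65 from the mean of the 18 libraries and the shortest at 0.18, and 8 of the 10 members, all but BCL2A1 and BID, were there at their lowest of the 6 HG3 libraries. The part of this in the HG3 ratios was not tested.

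BMF was higher in 7 of 9 pairs, with ratios of 0.19, 0.31 and 0.59 in MEC2 and -0.15 to 0.43 in the other lines. BID was higher in 3 of 9 pairs, BCL2L2 in 3 of 9 and BAK1 in 2 of 9. BAK1 was lower with CpG in all 3 pairs of MEC2, by -0.32, -0.64 and -0.02 on the log2 scale, and its MEC2 groups did not overlap (21.9 to 28.3 CPM with CpG, 28.6 to 34.1 CPM unstimulated, unblocked Log2FC -0.32, edgeR adjusted p = 1). BID was at 33.9 CPM in CpG-stimulated MEC2 replicate 2, the library with 19.7% mitochondrial counts, against 70.6 and 73.2 CPM in the other replicates of that group. Within a line, the members higher with CpG in 3 of 3 pairs were 1 of 10 in HG3 (7.08% of all genes), 7 of 10 in MEC2 (8.58%) and 6 of 10 in PCL12 (7.94%). In MEC2 these were BCL2, BCL2L1, MCL1, BCL2A1, BCL2L11, PMAIP1 and BMF, in PCL12 the same without BMF, and in HG3 PMAIP1. The shares cover all 31872 genes tested, of which 13991 had a mean of 1 CPM or more, so they are not those of genes at like levels. The 7 members of MEC2 were also those lowest in replicate 3 in both treatments (below), so they may not be separate results.

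The difference of the CpG effect between lines was tested itself, and 0 of 10 members passed in any pair of lines by edgeR, with or without the block, by DESeq2 or by limma-voom. The share of all genes past the edgeR threshold without the block was 0% for MEC2 against HG3 and MEC2 against PCL12 and 0.00314% for PCL12 against HG3, and no member had an unadjusted p under 0.05. The shares with the block were 0.141% for MEC2 against HG3, 0.069% for PCL12 against HG3 and 0.0126% for MEC2 against PCL12. With the block, BCL2L1 gave a difference of 0.78 between MEC2 and HG3 (95% interval 0.21 to 1.35, edgeR adjusted p = 0.801) and BCL2A1 one of 0.57 (0.01 to 1.14, edgeR adjusted p = 1). With the block and without replicate 2 of HG3 and of MEC2, a setting added after the values were seen, BCL2L1 passed for MEC2 against HG3 (0.99, edgeR adjusted p = 9.984e-04). With all libraries, the rise in MEC2 is not shown to differ from that in HG3. No gene of either pathway list passed with CpG in any line, with or without the block. HRK, in MEC2, was at 0.976, 0.985 and 0 CPM with CpG against 3.41, 2.12 and 0.541 CPM unstimulated (with the block, edgeR adjusted p = 0.391).

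Most members varied with the replicate number. In MEC2, BCL2, BCL2L1, MCL1, BCL2A1, BCL2L11, PMAIP1 and BMF were lowest in replicate 3 in both treatments (7 of 10, 16.4% of all genes), and the same 7 were so in PCL12 (10.8% of all genes), while in HG3 it was 0 of 10. Both lines at once held for 4.9% of all genes. Replicate 3 of BCL2L11 was at 0.261 and 0.268 of the mean of replicates 1 and 2 in CpG-stimulated and unstimulated MEC2, and at 0.278 and 0.306 in PCL12. For BMF these values were 0.449, 0.354, 0.385 and 0.430. MCL1 was nearest to 1 among the 7 in PCL12, at 0.768 with CpG and 0.813 unstimulated. BCL2L2, BAK1 and BID were not part of the pattern, with values of 0.857 to 1.69 in MEC2 and PCL12. In HG3, replicate 3 was instead the highest in both treatments for BCL2 (2.13 with CpG and 2.74 unstimulated), PMAIP1 (2.23 and 2.17), BCL2L11 (1.56 and 1.93), BCL2L1, MCL1 and BID. The labels do not say what the replicate number stands for beyond the pairing, so this spread and the date or culture of a replicate cannot be told apart.

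**Figure D5:**
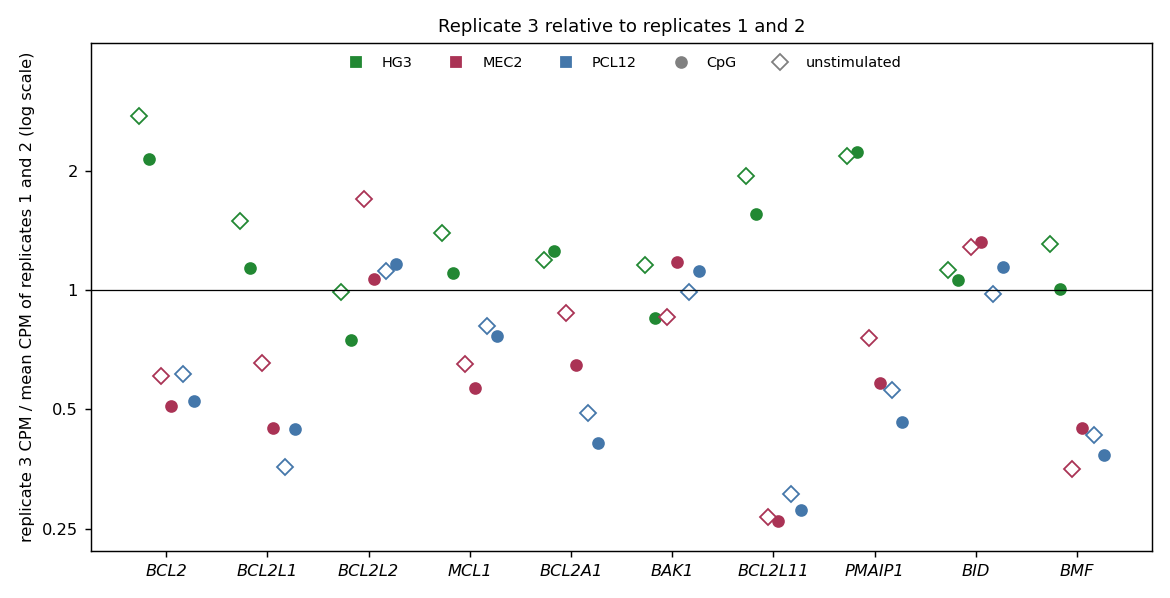
Replicate 3 CPM divided by the mean CPM of replicates 1 and 2 (vertical axis, log scale) for the 10 genes, coloured by line, with filled circles for CpG and open diamonds for unstimulated cells. BCL2L11 is at 0.261 to 0.306 in MEC2 and PCL12, while BCL2, BCL2L11 and PMAIP1 are at 1.56 to 2.74 in HG3.

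For BCL2L1 and BCL2A1, the members past the adjusted threshold between lines, the genes of most similar pattern were sought over the 18 libraries among the 13991 genes with a mean level of 1 CPM or more. The 3 nearest to BCL2L1 were DENND5A (Pearson r = 0.936 of log2 CPM), IER5 (0.928) and MKNK2 (0.927). The 3 nearest to BCL2A1 were EBI3 (0.951), DRAM1 (0.944) and RHOV (0.941). The libraries share lines, treatments and replicate numbers, so these values describe likeness over these 18 libraries.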

How the data were processed

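RNA of 18 libraries was sequenced. The authors deposited whole-number counts of reads per gene symbol. The submitters' processing notes name FastQC, MultiQC, Trimmomatic, STAR, featureCounts and hg38, while tool versions and the strand setting of the counting are not given in the sources used here. The labels and the methods both describe stranded libraries, but name different RNA extraction kits. From these deposited counts, CPM were computed, with each library total multiplied by its TMM factor (0.913 to 1.11). The cell type markers, the genes of MEC2 and PCL12 compared between libraries and the bound for HRK used library totals alone. Genes with at least 10 counts over all libraries (31872 of 56609) were tested with edgeR 4.0.16 (R 4.3.3; TMM, robust quasi-likelihood, 6 groups, 12 residual degrees of freedom), with Benjamini-Hochberg adjustment over all genes tested. Intervals are at 95% and cover the spread between libraries, for which the fit with the replicate block used a spread shared over genes. DESeq2 1.42.0, limma-voom (limma 3.58.1), other scalings, filters and left-out libraries were alternatives, and the code was tested on simulated data. The study's design text pairs samples by replicate number within a line, so a replicate block was fitted too (6 residual degrees of freedom). Deviations of same-numbered samples correlated at 0.212 to 0.480 in HG3, 0.494 to 0.607 in PCL12, and 0.189, -0.0133 and 0.611 in MEC2, where replicates 1 and 2 correlated better crosswise (0.449 and 0.388). The members, lists and tests were chosen with earlier results of these data known. Members with an unadjusted p under 0.05 in the fit without the block were given full statistics, and genes of the 2 lists were named when past the adjusted threshold, except some that are not reported here.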

Additional observations from a re-analysis of the deposited data

How the results depend on the processing

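No direction of a member with an unadjusted p under 0.05 without the block, or of a list gene past the threshold, was reversed under the alternatives run. BCL2L11 with CpG in HG3, at a Log2FC of 0.42 with the block, came without it to -0.04 without CpG HG3 replicate 3, -0.20 without unstimulated HG3 replicate 2 and -0.22 without both libraries rich in mitochondrial counts, where its mean of the 3 lines was -0.02. The unblocked CpG effects in HG3 of BCL2, MCL1, BCL2A1 and PMAIP1 also turned below 0 in some settings, to -0.216, -0.199, -0.195 and -0.107 at the lowest. Counts are of members past an adjusted p of 0.05. For MEC2 against HG3 the 2 calls came to 3 with DESeq2 (BCL2L1, BCL2A1 and BID), to 1 without both libraries rich in mitochondrial counts (BID, neither of the 2), and to 1 or 2 with each replicate left out. For PCL12 against HG3 the 1 call came to 4 with no filter, to 0 in a fit of the 2 groups alone, without PCL12 replicates 2 and 3 and without both libraries rich in mitochondrial counts, and to 0 to 2 with each replicate left out. For MEC2 against PCL12 the 0 calls came to 2 with no filter. With the replicate block, the 0 calls for CpG in MEC2 came to 1 by edgeR and by limma-voom, to 1 without MEC2 pair 2 or 3, and to 2 without replicate 2 of HG3 and of MEC2. That last setting also gave 3 calls in PCL12 (BCL2L1, BCL2A1 and PMAIP1) and 1 for the CpG effect of MEC2 against HG3. For the mean of the 3 lines the blocked count was 2 by edgeR and by limma-voom, 1 without PCL12 replicates 2 and 3, 3 without replicate 2 of HG3 and of MEC2, and 1 to 3 with each pair left out. The causes were not tested. The block changed no other count of calls. The blocked calls rest on 6 residual degrees of freedom, and in MEC2 on a pairing that the correlations of replicates 1 and 2 do not show. Their SE is that of a spread shared over genes, not of the gene's own pairs. With CpG in HG3 it was 0.204 for BID and 0.210 for BCL2L11, whose pair ratios had SDs of 0.0627 and 0.720. So the blocked adjusted p-values do not measure how far the pairs of a single gene differ. The mean of the 3 lines and the left-out pairs were added after the data were seen.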
